A study of Mus musculus with 2 samples.

Results

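Globin, heme and erythroid genes were examined in cells sorted from the mouse otocyst, the epithelial vesicle that gives rise to the inner ear. The set holds 42 genes, namely globins, enzymes and carriers of heme synthesis and breakdown, receptors for iron and erythropoietin, erythroid nuclear regulators, and proteins of the red cell membrane. A gene was included where a probe set of the array named it and no other gene, which tied 40 of the 42 to 70 probe sets, out of 18194 genes named in this way. The globin Hbb-b1 and Ahsp, which encodes the chaperone of free alpha-globin, had no such probe set and were not analysed here. Trfr2 was read as Tfr2, of which it is an older name.

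The cells came from embryos at E10.5 that were heterozygous for the transgene Tg(ETAR-EGFP)14Imeg. Dissociated otocysts were sorted by EGFP fluorescence with propidium iodide added, and 1 array was hybridised with RNA of EGFP-positive cells and 1 with RNA of EGFP-negative cells. The former is called the positive and the latter the negative library, and both share age, transgene and dissociation. Per the labels, EGFP is found chiefly in ventral and dorsomedial parts of the otocyst and is lacking dorsolaterally, and all sorted cells are called epithelial. No step that removes blood cells is named in the labels, and the sources used here do not state how many embryos were pooled.

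At this stage the blood of the mouse embryo carries mainly primitive erythroid cells, which arise in the yolk sac, circulate with their nuclei and make embryonic hemoglobin. They pair the embryonic alpha-like globin of Hba-x, and adult alpha-globin, with the embryonic beta-like globins of Hbb-y and Hbb-bh1. Their heme is made along a chain of enzymes that every cell has, but whose first step is run by Alas2 in erythroid cells and by Alas1 elsewhere. Klf1, Tal1 and the Gata1 complex drive globin, heme and membrane genes together.

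Many erythroid genes carry sites for Gata factors and for Klf1 near their starts, so the last 160 bases before the start are shown for an embryonic globin of each cluster, for the erythroid and the general form of the first heme enzyme, and for a regulator and a pair of membrane genes. They are RefSeq sequences of GRCm38.p6, written 5′ to 3′ in the direction of the gene. Capitals mark matches on either strand to AGATAA or TGATAA, bound by Gata factors, to CCNCNCCC, the kind of site bound by Klf1, and to TATAAA.
Hba-x (chr11:32276440-32276599, plus strand): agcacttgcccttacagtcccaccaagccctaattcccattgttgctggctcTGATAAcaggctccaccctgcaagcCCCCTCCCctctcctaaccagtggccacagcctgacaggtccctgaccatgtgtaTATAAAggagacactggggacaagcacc
Hbb-y (chr7:103853208-103853367, minus strand): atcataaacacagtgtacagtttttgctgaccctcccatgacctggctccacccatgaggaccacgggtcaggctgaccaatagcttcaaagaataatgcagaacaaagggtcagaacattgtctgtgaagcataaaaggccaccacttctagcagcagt
Alas2 (chrX:150547257-150547416, plus strand): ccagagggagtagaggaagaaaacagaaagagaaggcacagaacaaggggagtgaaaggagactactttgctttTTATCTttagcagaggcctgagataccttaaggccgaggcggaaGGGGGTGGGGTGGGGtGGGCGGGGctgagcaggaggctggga
Alas1 (chr9:106247955-106248114, minus strand): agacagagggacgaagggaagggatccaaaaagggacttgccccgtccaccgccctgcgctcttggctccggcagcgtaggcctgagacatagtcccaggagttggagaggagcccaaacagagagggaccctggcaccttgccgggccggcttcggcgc
Klf1 (chr8:84901822-84901981, plus strand): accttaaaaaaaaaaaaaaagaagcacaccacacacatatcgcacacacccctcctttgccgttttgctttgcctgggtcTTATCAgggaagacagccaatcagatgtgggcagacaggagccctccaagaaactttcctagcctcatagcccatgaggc
Rhag (chr17:40810989-40811148, plus strand): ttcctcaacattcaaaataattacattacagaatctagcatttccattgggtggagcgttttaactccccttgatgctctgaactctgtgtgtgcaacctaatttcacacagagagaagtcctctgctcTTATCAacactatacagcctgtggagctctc
Kel (chr6:41704326-41704485, minus strand): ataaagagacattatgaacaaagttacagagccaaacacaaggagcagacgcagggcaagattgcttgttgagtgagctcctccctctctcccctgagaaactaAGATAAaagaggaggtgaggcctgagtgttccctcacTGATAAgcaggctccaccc
Of the printed windows, those of Hba-x and Alas2 held both AGATAA or TGATAA and CCNCNCCC, and that of Hba-x also TATAAA. Those of Klf1, Rhag and Kel held AGATAA or TGATAA alone. None of the letters searched was in the printed windows of Hbb-y and Alas1. For the starts printed here, TGATAA of Hbb-y and CCNCNCCC of Alas1 lay further upstream. A second window of Alas1, which is not printed, held CCNCNCCC within the last 160 bases before its start. The lack of a match in the printed window thus does not hold for both windows of Alas1.
Of the members, 31 had 41 windows in the RefSeq table, and each window was searched over 250 bases before the start. AGATAA or TGATAA was found in 17 of 27 windows (63.0%) of the members that were at least 2-fold higher in the negative library. It was found in 2 of 13 windows (15.4%) of members that differed by less, and in 16.6% of all 32851 windows of the table. Those 2 windows belonged to Uros and to Hba-a2, whose own probe set was dim, at 23.7 in the positive and 16.9 in the negative library. Probe sets shared by Hba-a1 and Hba-a2 were 7.65-fold to 39.8-fold higher in the negative library. The window of Hba-a1, whose own signals were too low to compare, held TGATAA and is in neither group. The first group holds 22 genes and the second 8, windows of 1 gene can overlap, and these shares were not tested. CCNCNCCC was in 55.6%, 53.8% and 45.9% of these windows, and its matches can overlap each other. TATAAA was in 18.5% of the windows of the first group, in 0 of 13 of the second and in 12.4% of all. A match is a run of letters and was not examined as a site of binding.

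Signals are MAS5 values, 1 per probe set on a linear scale, and a gene with several is represented by the brightest on average. Each array's 40th percentile, 10.4 in the positive and 12.4 in the negative library, served as a floor to which lower signals were raised before a ratio was taken. A gene above the floor in at least 1 library is called measured, and a gene is counted as higher where the ratio is 2-fold or more. Because the highest of 27 bacterial probe sets without a transcript reached 12.3 in the positive library, a fold with a signal at or below 12.3 there is printed against 12.3 as "at least". With 1 array per population no difference can be set against a spread between samples, and no p-value is given. A limited measure of error is how far probe sets of the same gene differ in their log2 ratio, with an SD of 0.315 over 5640 genes, rising to 0.411 where the mean signal was under 50.

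Of the 42 genes, 39 were measured, and 30 of these were higher in the negative library by 2-fold or more, as were 7.63% of all 13363 measured genes. In the other direction 0 members passed 2-fold, against 2.90% of all genes. The other 9 lay within 2-fold. At 4-fold, 20 members were higher in the negative library, against 2.53% of all genes, and 0 in the positive library, against 0.277%. The members' median log2 ratio of EGFP-positive over EGFP-negative was -2.01, and that of all genes was 0.0032. Of the 39, 37 had a ratio below 0. Of all called genes, 72.4% were higher in the negative library. That share was 62.1% after quantile normalization, 86.6% after centring on hybridisation controls and 99.9% after centring on epithelial genes. No called member changed direction after quantile normalization, and both centrings shift every gene towards the negative library, so they could not turn one.

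**Figure D1:**
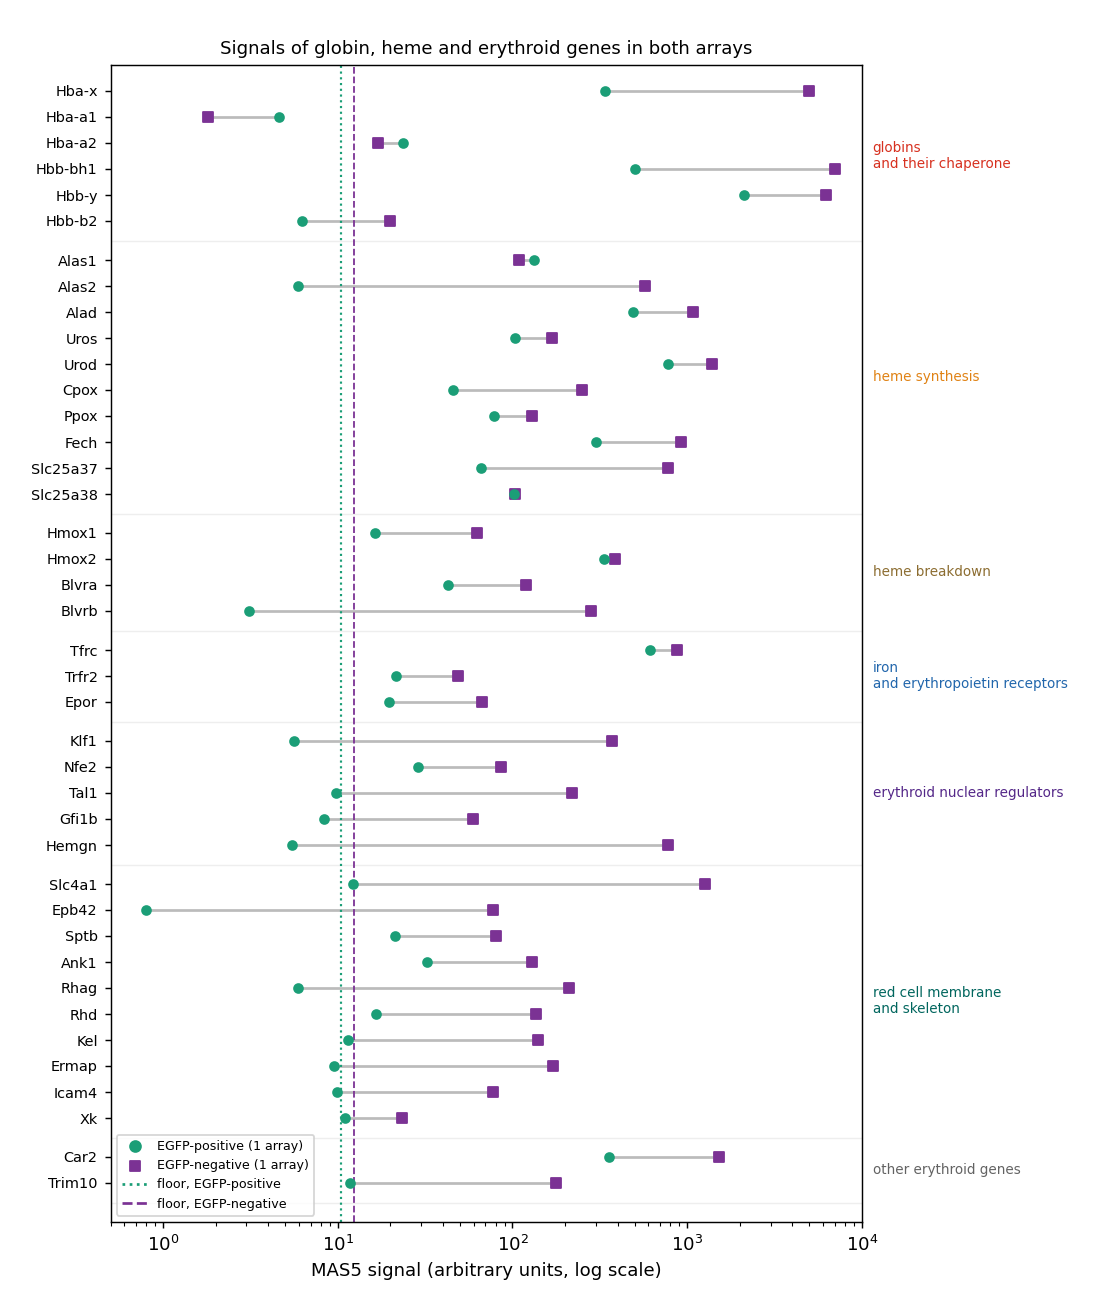
Signal of each of the 40 genes with a probe set of their own (rows) in the EGFP-positive array (circles) and the EGFP-negative array (squares), on a log axis of MAS5 signal, with each array's floor as a vertical line. Nearly all squares lie to the right of their circles. The circles of most membrane and regulator genes lie below or near the floor, whereas those of the 3 embryonic globins lie at 338.5 or above.

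The embryonic globins were far above the floor in both libraries and higher in the negative library. Hba-x, the embryonic alpha-like globin, had a signal of 338.5 in the positive and 4955.8 in the negative library, 14.6-fold higher in the latter. Hbb-bh1, an embryonic beta-like globin, had 500.5 against 7046.6, 14.1-fold, and its other probe sets gave 11.0-fold and 11.9-fold. The highest signal of any probe set on the EGFP-negative array was 7166, so Hbb-bh1 lay next to the upper end of that array's signals. Hbb-y, the other embryonic beta-like globin, had 2121 against 6191, 2.92-fold. A second probe set of Hbb-y gave 2.96-fold, but the third read 539.2 in the positive and 5311 in the negative library, 9.85-fold. The first and second, like the leading set of Hbb-bh1, carry the suffix that marks probes shared with other sequences, and the third does not. The small ratio of Hbb-y thus depended on the probe set, and whether other globin transcripts contribute to it was not tested.

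Adult globin genes could hardly be read gene by gene. The 1 probe set naming Hba-a1 alone had 4.6 in the positive and 1.8 in the negative library, at the floor in both. Hba-a2, the other adult alpha-globin gene, had 23.7 against 16.9, 1.40-fold higher in the positive library and close to the floor. Hbb-b2, an adult beta-globin gene, had 6.2 against 19.8, at least 1.61-fold higher in the negative library. Probe sets that name several adult globin genes at once were bright but name no single gene, so they are not counted among the members. In this group 3 of 5 measured genes were called, with a median log2 ratio of -1.55, or -3.82 with the floor at the 60th percentile, where the dim adult genes fell out.

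Heme synthesis genes ranged from a slightly higher signal in the positive library to a large difference the other way. Alas2, which runs the first step in erythroid cells, had 5.9 in the positive and 576.5 in the negative library, at least 46.9-fold higher in the latter. Alas1, the form of other tissues, had 133.0 against 109.5, 1.21-fold higher in the positive library. A dimmer probe set of Alas1 gave 42.4 against 13.9.

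The enzymes that follow were present in both libraries and moderately higher in the negative library. Cpox, coproporphyrinogen oxidase, had 45.6 against 250.4, 5.49-fold, with a second probe set at 2.58-fold. Fech, ferrochelatase, which inserts the iron, had 300.4 against 924.8, 3.08-fold, and its 3 bright probe sets lay between 2.99-fold and 3.71-fold. Alad, the second enzyme of the chain, had 489.0 against 1075, 2.20-fold, but its dimmer probe set read 53.8 against 54.3. Urod, Ppox and Uros, which act in the middle and late steps, were within the 2-fold limit. Urod had 776.5 against 1385, 1.78-fold, Ppox had 78.1 against 130.1, 1.67-fold, and Uros had 103.7 against 169.1, 1.63-fold. These values order the steps by ratio, not by level, since signals of different probe sets are not on 1 scale.

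Of the mitochondrial carriers, Slc25a37, mitoferrin 1, which brings iron to the heme pathway of erythroid cells, had 65.9 in the positive and 776.1 in the negative library, 11.8-fold higher. Slc25a38, a glycine carrier of the same pathway, had 102.2 against 103.5, a log2 ratio of -0.02. In the heme synthesis group 5 of 10 measured genes were called, all higher in the negative library, and the median log2 ratio was -0.99.

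Genes of heme breakdown ranged from 1.16-fold to at least 22.9-fold higher in the negative library. Blvrb, a flavin and biliverdin reductase abundant in red cells, had 3.1 against 281.4, at least 22.9-fold higher in the negative library. Blvra, the general biliverdin reductase, had 42.6 against 119.7, 2.81-fold. Hmox1, the inducible heme oxygenase, had 16.4 against 62.7, 3.82-fold, although its log2 ratio shrank to -0.91 with the floor at the 60th percentile. Hmox2, the constitutive form, had 334.7 against 388.4, 1.16-fold. Thus 3 of 4 genes were called, with a median of -1.71.

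**Figure D2:**
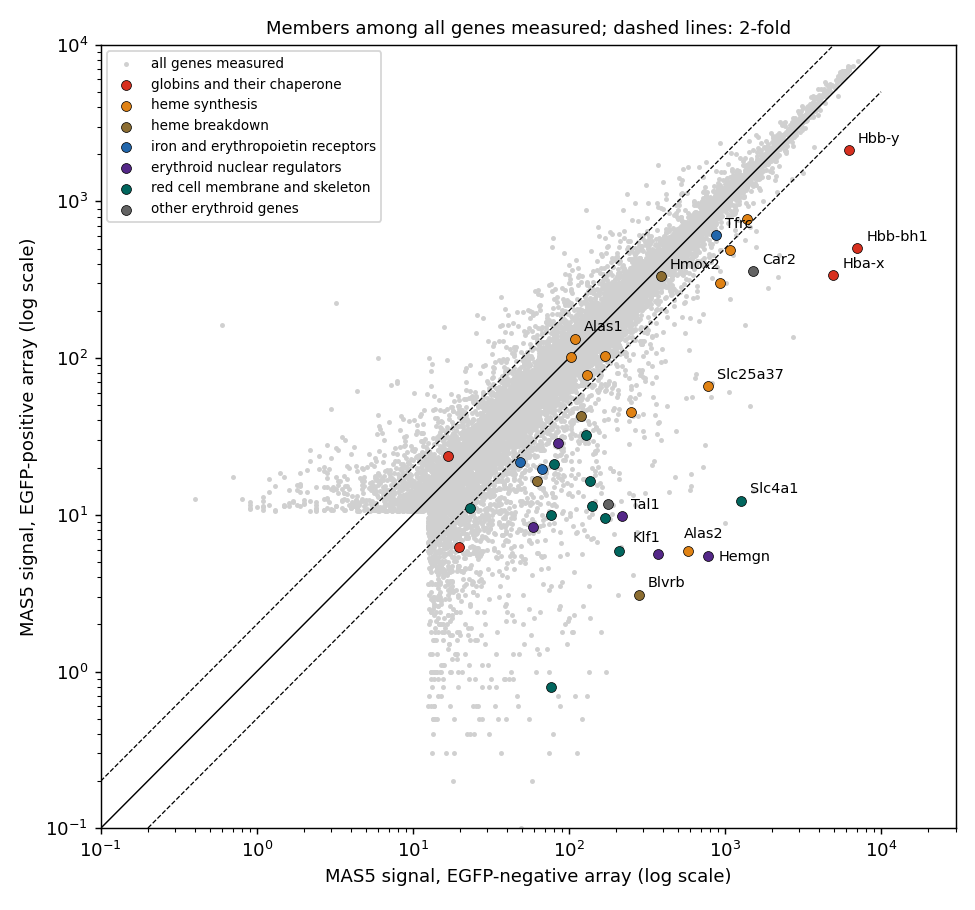
Each point is 1 of the 13363 measured genes (grey) or a member (coloured by role), with its signal in the EGFP-negative array on the horizontal and in the EGFP-positive array on the vertical log axis; the solid line is equality and the dashed lines mark 2-fold. Alas1, Hmox2 and Tfrc lie between the dashed lines, Hba-x and Hbb-bh1 lie far below them at high signal, and Alas2, Klf1 and Hemgn lie below the EGFP-positive floor of 10.4, with Slc4a1 just above it.

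The receptors lay between 1.43-fold and 3.43-fold. Tfrc, the transferrin receptor by which dividing cells take up iron, had 610.0 in the positive and 871.0 in the negative library, 1.43-fold higher in the latter and within the limit. Its 5 other probe sets, 3 of them from the array's own control series, read from 1.94-fold to 2.67-fold, so the brightest set was the least different. Tfr2, the transferrin receptor of liver and erythroid cells, had 21.6 against 48.8, 2.26-fold, and a floor at the 60th percentile left a log2 ratio of -0.55. Epor, the erythropoietin receptor, had 19.6 against 67.2, 3.43-fold. Of these 3 genes 2 were called, with a median log2 ratio of -1.18.

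All 5 erythroid nuclear regulators were at least 2-fold higher in the negative library, and the signals of 4 in the positive library lay below the floor. Hemgn, a nuclear protein of hematopoietic progenitors, had 5.5 in the positive and 779.5 in the negative library, at least 63.4-fold higher. Klf1, the zinc finger activator of erythroid genes, had 5.6 against 371.3, at least 30.2-fold. Tal1, a basic helix-loop-helix factor of the first blood cells, had 9.8 against 220.2, at least 17.9-fold.

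Gfi1b, a repressor of erythroid and megakaryocytic cells, had 8.3 against 59.1, at least 4.80-fold, though a floor at the 60th percentile left a log2 ratio of -0.83. Nfe2, a leucine zipper subunit that acts on globin genes and in megakaryocytes, was the exception in the positive library with a signal of 28.8, against 85.4, 2.97-fold. The group's median log2 ratio was -4.40, a value set by the floor, and -2.73 with the floor at the 60th percentile.

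All 10 measured genes of the red cell membrane and its skeleton were higher in the negative library, with a median log2 ratio of -2.97, or -2.04 with the floor at the 60th percentile. Slc4a1, the anion exchanger band 3, had 12.3 in the positive and 1262 in the negative library, at least 103-fold higher, and a second probe set read 16.2 against 617.4, 38.1-fold. Of the proteins that tie the membrane to spectrin, Epb42 had 0.8 against 77.0, at least 6.26-fold. Ank1, ankyrin 1, had 32.2 against 129.6, 4.02-fold, and Sptb, beta-spectrin, had 21.2 against 80.3, 3.79-fold. A dimmer probe set each of Ank1 and Sptb had log2 ratios of -0.50 and -0.37.

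Genes of blood group and adhesion proteins were near or below the floor in the positive library. Rhag, the Rh-associated glycoprotein, had 5.9 against 210.0, at least 17.1-fold higher in the negative library, and its partner Rhd had 16.5 against 136.9, 8.30-fold. Ermap, a receptor of erythroid cells, had 9.5 against 170.3, at least 13.8-fold, and Kel, an endopeptidase that carries a blood group, had 11.4 against 140.8, at least 11.4-fold. Icam4, an adhesion protein of red cells, had 9.9 against 77.3, at least 6.28-fold. Xk, the membrane partner of Kel, was close to the floor in both, at 11.0 against 23.3. Against 12.3 its ratio was at least 1.89-fold, below the limit.

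Among the remaining genes, Trim10, a RING finger protein needed for terminal erythroid differentiation, had 11.8 against 178.2, at least 14.5-fold higher in the negative library. Car2, a carbonic anhydrase abundant in red cells and present in many epithelia, had 358.9 against 1513, 4.21-fold. Car2 was thus well above the floor in the positive library too. Of the 39 measured members, 15 had a signal at or below 12.3 in the positive library, from 0.8 to 12.3, so that their ratios cannot be ordered among themselves. None of the 39 was at or below that level in the negative library. For the 11 at or below the floor in the positive library this was fixed in advance, since a measured gene had to pass 1 floor.

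**Figure D3:**
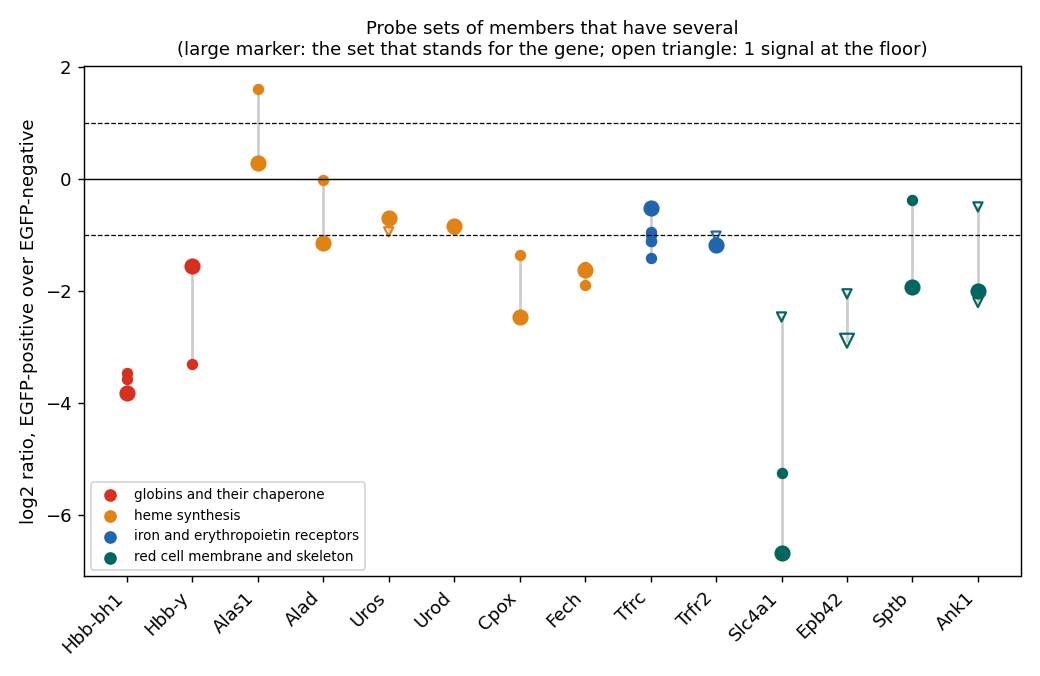
Log2 ratio of EGFP-positive over EGFP-negative signal for every probe set above the floor in at least 1 array, for the 14 members with several; the larger marker is the probe set that stands for the gene, open triangles have 1 signal at the floor, and dashed lines mark 2-fold. Probe sets of Hbb-bh1, Urod and Fech lie close together. Those of Hbb-y, Alas1, Alad, Cpox, Slc4a1, Sptb and Ank1 spread by more than 1 log2 unit.

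Several probe sets were above the floor in at least 1 library for 14 members. Of the 10 of these that were called, all probe sets were lower in the positive library for 10, and all were past 2-fold for 7. The exceptions were Alad, Sptb and Ank1. Probe sets of 1 gene share the RNA and the array and are not replicates.

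Further genes of the same pathways, from lists drawn up beside the members, were mostly within 2-fold or not measured. Even so, a larger share of each list than of all genes was higher in the negative library. Of 20 further heme and iron genes, 14 were measured, 3 were higher in the negative library and 0 in the positive library. The 3 were 21.4% of those measured, against 7.63% of all genes, and the median log2 ratio was -0.40. The iron exporter gene Slc40a1 had 22.4 in the positive and 91.0 in the negative library, 4.06-fold higher. Abcb10, a mitochondrial transporter of erythroid cells, was 2.47-fold and Abcg2, a porphyrin exporter, 2.44-fold higher in the negative library. Ncoa4, a ferritin receptor, was 1.82-fold higher there and within the limit. Of 16 further red cell genes, 10 were measured and 3 were called, namely Gypc, a glycophorin, 4.57-fold, the tetraspanin Tspan33, 2.67-fold, and Bpgm, which makes the hemoglobin ligand bisphosphoglycerate, 2.02-fold. The other probe sets of Tspan33 ran from 1.37-fold to 2.93-fold. Add2, an adducin of the membrane skeleton, was 1.88-fold higher and within the limit. The median of this list was -0.73.

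Of 12 further regulators, all measured, 5 were higher in the negative and 1 in the positive library, with a median log2 ratio of -0.48. The 5 were 41.7% of the list, against 7.63% of all genes, and 2.90% of all genes were higher in the positive library. Lmo2, Lyl1 and Gata1, which act in 1 complex or beside it, had signals in the positive library of 3.5, 1.8 and 6.6 against 135.0, 105.9 and 89.3. The ratios towards the negative library were at least 11.0-fold for Lmo2, 8.61-fold for Lyl1 and 7.26-fold for Gata1. Ikzf1, a lymphoid and hematopoietic factor, had 8.9 against 80.1, at least 6.51-fold, but its dimmer probe set read 11.5 against 18.0, 1.57-fold. Kit, the stem cell factor receptor of progenitors and melanoblasts, went the other way, with 266.6 in the positive and 103.3 in the negative library, 2.58-fold. It lies outside the naming rule and was chosen after its values were seen, as was Bcl11a, a globin switching factor that completes the 5 and had 17.0 against 78.9, 4.64-fold. After centring on epithelial genes the log2 ratio of Kit was -0.16.

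**Figure D4:**
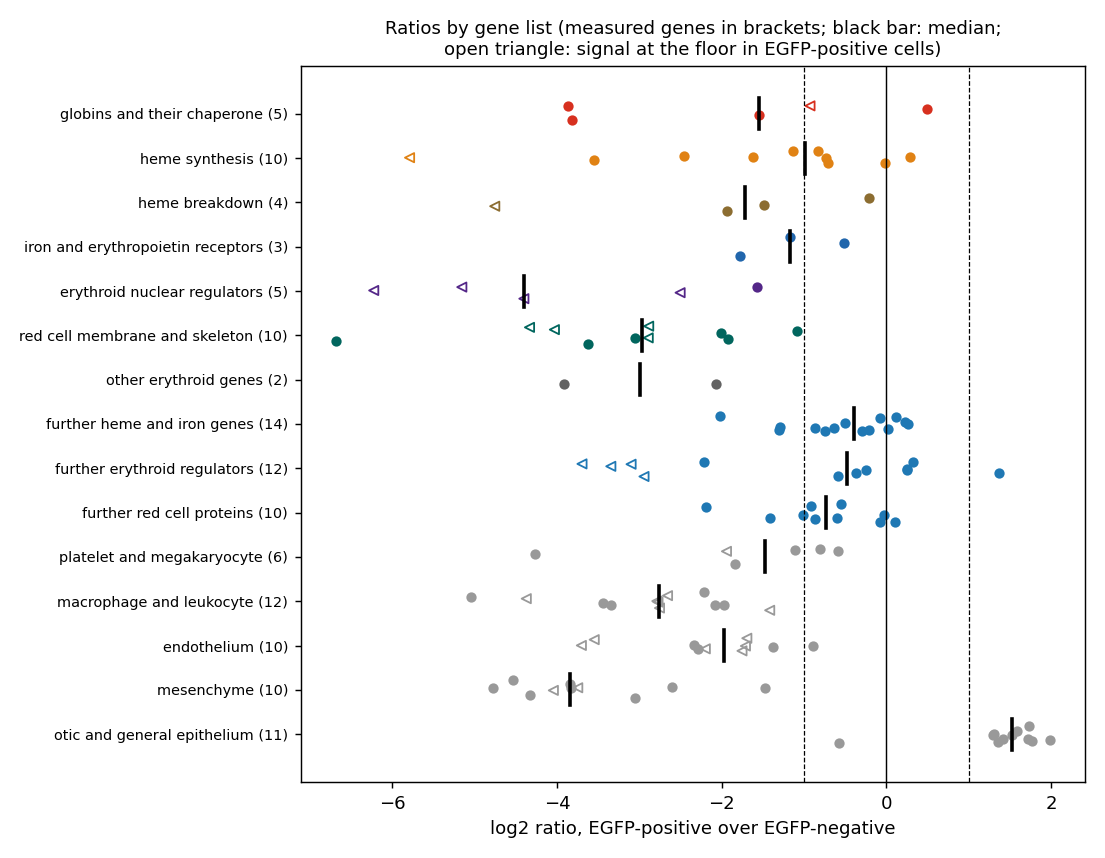
Log2 ratio of EGFP-positive over EGFP-negative signal for each measured gene of each list, with the number of genes in brackets, a black bar at the median, and open triangles where the EGFP-positive signal is at the floor; dashed lines mark 2-fold. The medians of the erythroid regulators, at -4.40 with 4 of 5 genes at the floor, and of the mesenchyme list, at -3.84, lie well to the left, and the epithelial list, at 1.53, is the only one with a median to the right.

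Markers of other cell types moved in the same direction. All 12 macrophage and leukocyte genes passed 2-fold towards the negative library, against 7.63% of all genes. So did 9 of 10 endothelial and 10 of 10 mesenchymal genes. Summed signals in the positive and negative library were 113.9 and 1587 for the macrophage and leukocyte genes. They were 120.9 and 720.2 for the endothelial and 415.1 and 5934 for the mesenchymal genes. Such sums follow the brightest genes, such as Csf1r at 607.1 and Col3a1 at 2733 in the negative library. They add signals not raised to the floor, so in the positive library they include signals at or below the highest bacterial control. Of 6 measured platelet and megakaryocyte genes, which share Nfe2, Tal1 and Gfi1b with erythroid cells, 4 were higher in the negative library. They included Pf4, platelet factor 4, at 258.0 against 13.4, and the list summed to 106.8 and 473.1. In the positive library 8 of 12 macrophage and leukocyte and 6 of 10 endothelial genes were at or below 12.3. So were 3 of 10 mesenchymal and 2 of 6 platelet and megakaryocyte genes.

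Otic and epithelial genes, the labelled cell type, were present in both libraries. Of these, 10 of 11 were at least 2-fold higher in the positive library, against 2.90% of all genes. The list's median log2 ratio was 1.53, with sums of 10391 in the positive and 4704 in the negative library. Epcam, an epithelial adhesion gene, had 1610 against 538.6. The exception was Oc90, at 939.8 against 1406. Of the defining erythroid genes set beside these, Hba-x, Hbb-bh1, Hbb-y, Alas2, Klf1, Slc4a1 and Hemgn were all at 371.3 or above in the negative library. The part of other cells in these differences was not tested. In such bulk RNA, fewer cells of a type and less RNA per cell cannot be told apart.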

How the data were processed

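The deposited table holds intensities, 1 MAS5 signal per probe set and array for 45101 probe sets, made by the authors with MAS5 version 5.0, per the submitters' processing notes. Per the labels' protocols, biotinylated cRNA was made from total RNA. Trimmed of 2% at either end, each column had a mean of 100.0, which puts both arrays on a shared scale, and detection calls were not used here. The number of arrays, 2, limits the precision.

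Probe sets were named from the platform annotation and current symbols from the RefSeq table of GRCm38.p6: 34958 named 1 gene, 932 several and 9211 none here. No gene coordinates are given, since the signals carry no build. Ratios, counts and medians were computed in Python 3.11.15 with pandas 2.3.3, and the procedure was tested on simulated data. The simulated differences were placed in genes with a mean signal above 50, so differences in dimmer genes were not covered. Every member tied to a probe set was named, with up to 4 genes of each further pathway list by size of ratio, and Kit and Bcl11a after their values were seen. The members and lists were chosen with earlier results of these data known. Alternatives were 3 other floors, a pseudocount of 16, other probe set choices, 3 scalings, 2 filters and fold limits of 1.5 and 4.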

Additional observations from a re-analysis of the deposited data

Results flagged for a closer look

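Probe sets that the annotation ties to several adult globin genes lie outside the members and carried signals far above the bacterial controls, whose highest was 12.3. The 1 set shared by Hbb-b1, Hbb-b2, Hbb-bs and Hbb-bt, the adult beta-globin genes, had a signal of 39.4 in the positive and 2444 in the negative library, 62.0-fold higher. The 3 sets shared by the adult alpha-globin genes Hba-a1 and Hba-a2 had 157.1 against 6249, 406.0 against 5252 and 642.1 against 4911. Their ratios were 39.8-fold, 12.9-fold and 7.65-fold, all higher in the negative library. The single-gene probe sets of Hba-a1, Hba-a2 and Hbb-b2 read no more than 23.7 on either array. These values were singled out after they were seen, and which of the genes gave the signal cannot be told apart.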

How the results depend on the processing

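No called member changed direction under any alternative that gave it a value, though both centrings shift all genes towards the negative library and could not turn one, and 25 of 30 stayed past 2-fold in all of them. The others were Alad, Gfi1b, Hmox1, Tfr2 and Xk. The number of members called higher in EGFP-negative cells ran from 20, without genes at the floor in 1 array or at 4-fold, to 39 after centring on epithelial genes, and none was called in EGFP-positive cells. The members' median log2 ratio of -2.01 became -1.58 with the floor at the 60th percentile, -1.59 with a pseudocount of 16, -1.60 without genes at the floor in 1 array and -3.54 after centring on epithelial genes. That centring moved the median of all genes to -1.53 and centring on hybridisation controls to -0.25, and a constant shift leaves the members' distance from all genes at -2.01 by construction. Keeping genes at the floor in both arrays moved the median of all genes to -0.19. The ratio of Kit turned to -0.16 after centring on epithelial genes. The counts over all genes, 1019 and 388, became 1954 and 711 at the 20th percentile, 478 and 237 at the 60th, 647 and 238 with the pseudocount, 632 and 325 without genes at the floor in 1 array, 1447 and 224 on hybridisation controls and 12148 and 14 on epithelial genes. A floor at the highest bacterial control, added after seeing the data, left 29 members called. No paired analysis was possible because each group has 1 array. The lowest signals limit the sizes: 15 of the 39 measured members were at or below 12.3 in EGFP-positive cells.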
